A study of Sus scrofa with 92 samples.

Results

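The 9 genes described here encode coagulation factors and regulators of clotting and fibrinolysis that the liver secretes into plasma. They were chosen by symbol: the procoagulant factors F2 (prothrombin), F5, F7, F9, F10 and F11, the anticoagulants SERPINC1 (antithrombin) and PROC (protein C), and PLG (plasminogen), the precursor of the fibrin-cleaving protease plasmin. A gene name table paired each symbol with 1 pig Ensembl identifier, and 8 of the 9 identifiers have a row among the 25322 in the deposited counts. The identifier of F11 has no row, so F11 was not analysed here. All values for the members therefore rest on 8 genes.

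The tissue is liver, biopsied at its periphery, from juvenile male Yorkshire-Landrace pigs in a model of hemorrhagic shock and polytrauma. All animals were fasted overnight. The 18 fasted (FS) animals received nothing further, and the 5 carbohydrate prefed (CPF) animals were given a bolus of carbohydrate syrup before the procedure. Both groups were instrumented and splenectomized under anesthesia. Blunt chest injury, hemorrhage, a crush injury to the liver, and limited and full resuscitation followed. Each animal was sampled at Baseline (B), before injury but once stable after instrumentation, so Baseline is not an unoperated state. It was sampled again 2 (FR2), 8 (FR8) and 20 (FR20) hours after the start of resuscitation. No group went without injury, so the effects of injury, blood loss, anesthesia, repeated biopsy and resuscitation cannot be told apart. Of the 23 animals, 3 FS and 2 CPF animals were labeled as having died.

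Clotting is a cascade of serine proteases that circulate as inactive precursors. F7, bound by tissue factor on injured cells, starts it, F9 and F10 carry it forward with the cofactors F8 and F5, and F10 with F5 converts prothrombin to thrombin, which turns fibrinogen into fibrin. Antithrombin inactivates thrombin and factor Xa, activated protein C cleaves factors Va and VIIIa, and plasmin later dissolves the clot. Hepatocytes are the main source of these proteins, and F2, F7, F9, F10 and PROC need vitamin K dependent carboxylation before export. A fall in plasma protein C and antithrombin is a known feature of coagulopathy after trauma. The data here are transcript counts in liver tissue, and no plasma protein or clotting activity was measured.

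Of the 92 deposited libraries, 88 were used. Their totals ran from 6877117 to 16613261 counts on genes, with a median of 12071957.5. The Baseline libraries of FS animals 17, 19 and 21, which held 4, 899 and 5 counts of albumin and 0 to 179 counts on each member, were left out, as was the FR8 library of CPF animal 3 with 4388 counts in all. The remaining 88 libraries carried the labelled tissue's defining transcripts, with albumin at 9521 CPM or more in each. CPM here are counts scaled to a common library size after TMM scaling, which corrects library totals for differences in composition. Levels are given on this scale as lowest, median and highest library, and are compared within a gene and not between genes, since gene lengths were not used.

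Further libraries stood apart. The FR2 and FR8 libraries of FS animal 11 listed 235 and 232 of 2180 abundant genes (median of at least 50 CPM) at 0, with 232 shared, while no other library had any of these at 0. F9 and SERPINC1 were among them in both libraries, although the same animal had 1658 counts of F9 and 62417 of SERPINC1 at Baseline and 2650 and 39588 at FR20. Fold changes of F9 and SERPINC1 in FS animals are therefore given with and without these libraries. In FS animals 17, 19 and 21 the libraries labeled FR2, FR8 and FR20 were closest, over all genes tested, to the FR8, Baseline and FR2 profiles of the other animals. In FS animal 10 the Baseline, FR2 and FR8 libraries were closest to FR8, FR20 and FR2, and the FR20 library of CPF animal 13 was closest to Baseline. In FS animal 9 the FR8 and FR20 libraries were closest to FR20 and FR8. The Baseline library of FS animal 4 and the FR20 library of FS animal 20 were closest to FR8. The labels were kept throughout. Counts without FS animal 11 at FR2 and FR8 are given beside the main ones. So are counts without FS animals 10, 17, 19 and 21 and CPF animal 13 at FR20. Libraries of FS animals 4, 9 and 20 were kept in them.

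PROC showed the largest fall among the members after 20 hours. In FS animals its level was 984, 2038 and 2546 CPM (lowest, median, highest) in 15 Baseline libraries and 737, 1421 and 2209 in 18 libraries at FR2. It was 662, 840.0 and 2419 CPM at FR8 and 458, 809 and 2145 at FR20, with 18 libraries each. At FR20, 14 of the 18 libraries lay below the lowest Baseline library, although the groups overlapped. The 3 libraries of FS animals 17, 19 and 21 held 2145, 1577 and 1772 CPM at FR20, and without these, animal 10 and animal 11 at FR2 and FR8 the highest FS library was 1046 CPM at FR20 against a Baseline range of 1134 to 2546. Among the 15 FS animals with a Baseline library, PROC was lower than Baseline in 14 at FR2, 14 at FR8 and 15 at FR20. The fitted log2 fold change was −0.55 ± 0.16 (SE; adjusted p = 0.00326) at FR2, −1.003 ± 0.16 (2.42e-06) at FR8 and −1.28 ± 0.16 (1.28e-08) at FR20. These and the following p-values are from edgeR's quasi-likelihood test with a term for each animal, adjusted over 13667 genes tested.

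**Figure D1:**
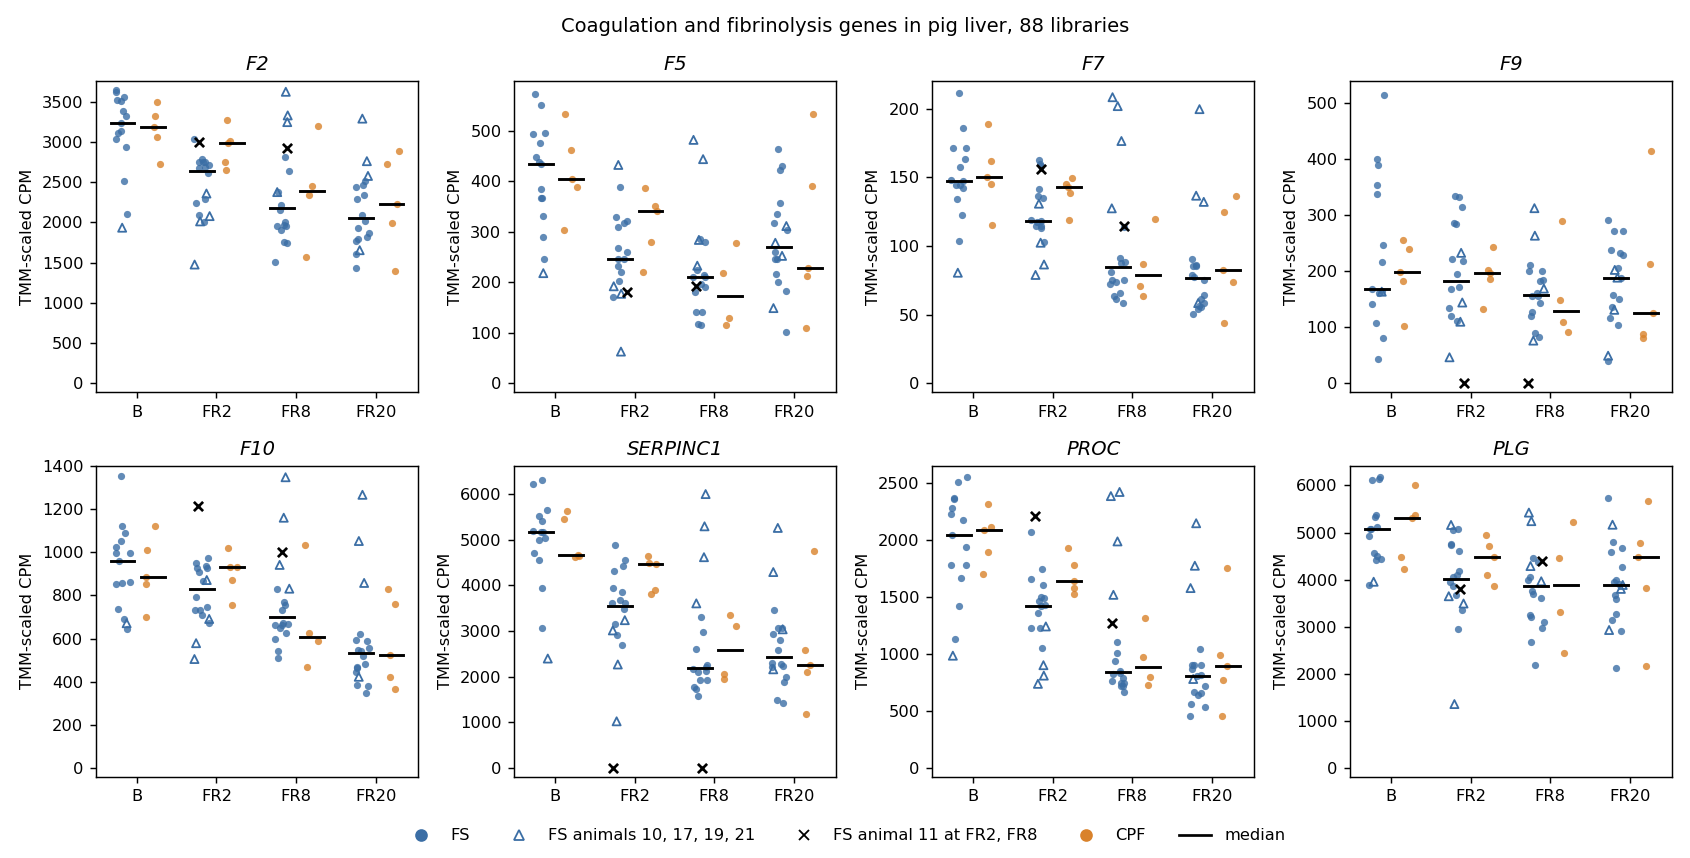
Level of each of the 8 measured members in every library (TMM-scaled CPM) by timepoint, for FS and CPF animals, with medians as bars. Triangles are FS animals 10, 17, 19 and 21, and crosses are FS animal 11 at FR2 and FR8. PROC falls from a median of 2038 CPM at Baseline to 809 at FR20 in FS animals, while F9 shows no such step (169 and 188).

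SERPINC1, the antithrombin gene, followed a similar course. Its FS levels were 2398, 5163 and 6312 CPM at Baseline (n = 15) and, without animal 11, 1022, 3610.4 and 4890.5 at FR2 and 1575, 2206 and 6003 at FR8 (n = 17 each). At FR20 they were 1419, 2437 and 5261 CPM (n = 18), and 9 of these 18 libraries lay below the lowest Baseline library. With all 88 libraries the log2 fold change was −0.72 ± 0.40 (adjusted p = 0.149) at FR2, −1.11 ± 0.42 (0.0284) at FR8 and −1.004 ± 0.40 (0.0473) at FR20. Without the FR2 and FR8 libraries of animal 11 the standard error was smaller, and the changes were −0.53 ± 0.16 (0.00682), −0.92 ± 0.17 (2.31e-05) and −0.98 ± 0.16 (3.67e-06). In this fit SERPINC1 was past the test at all 3 timepoints, and at FR20 it was lower in 15 of 15 animals.

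**Figure D2:**
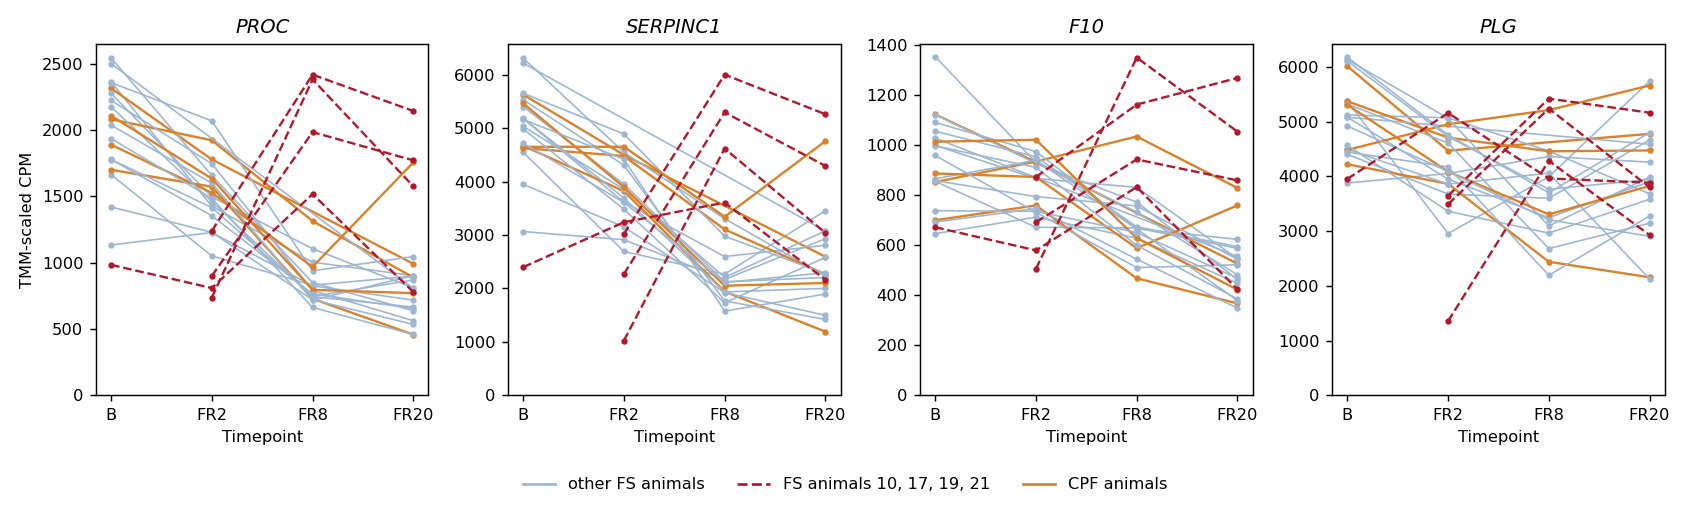
Level of PROC, SERPINC1, F10 and PLG (TMM-scaled CPM) in each animal over Baseline, FR2, FR8 and FR20, with 1 line per animal colored by FS and CPF. The FR2 and FR8 points of FS animal 11 are not drawn. PROC and F10 end below Baseline at FR20 in 15 of 15 FS animals with a Baseline library, and PLG in 12 of 15.

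Among the procoagulant factors, F7, which starts the cascade with tissue factor, showed the largest fall at FR20. In FS animals it was at 80.5, 147 and 212 CPM at Baseline, 78.9, 119 and 163 at FR2, 58.6, 84.4 and 208 at FR8 and 50.5, 76.3 and 199.6 at FR20. The medians stepped down at each timepoint, and 11 of 18 libraries at FR20 lay below the lowest Baseline library. Its log2 fold change was −0.34 ± 0.13 (adjusted p = 0.0289), −0.74 ± 0.13 (1.04e-05) and −1.03 ± 0.13 (1.5e-08), and at FR20 it was lower in 15 of 15 animals.

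F10, the protease that makes thrombin, had its lowest values at FR20. Its FS levels were 645, 957 and 1352 CPM at Baseline, 505, 829 and 1214 at FR2, 509, 702 and 1348 at FR8 and 348, 532 and 1267 at FR20. At FR20, 15 of 18 libraries were below the lowest Baseline library, against 2 of 18 at FR2. The log2 fold change was −0.24 ± 0.11 (adjusted p = 0.077; 0.0426 without animal 11 at FR2 and FR8) at FR2, −0.37 ± 0.11 (0.00789) at FR8 and −0.81 ± 0.12 (2.15e-07) at FR20. F10 was the single member that fell further between FR8 and FR20 in FS animals (−0.44 ± 0.11, 0.00782), lower in 16 of 18 animals. In that comparison 6.39% of all genes tested passed, and 3.33% of all genes tested passed as lower.

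F2, which encodes prothrombin, fell at all 3 timepoints. It was at 1933, 3232 and 3643 CPM at Baseline, 1475, 2644 and 3031 at FR2, 1513, 2180.3 and 3622 at FR8 and 1436, 2048 and 3289 at FR20 in FS animals. Its log2 fold change was −0.37 ± 0.10 (adjusted p = 0.00234), −0.46 ± 0.10 (2.73e-04) and −0.59 ± 0.10 (7.14e-06), with 14, 14 and 15 of 15 animals lower.

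F5, a cofactor and not a protease, had its lowest FS median at FR8 and not at FR20. The levels were 218, 435 and 572 CPM at Baseline, 62.9, 245 and 432 at FR2, 116, 211 and 482 at FR8 and 102, 269 and 463 at FR20. Its log2 fold change was −0.70 ± 0.19 (adjusted p = 0.00187) at FR2, −0.84 ± 0.19 (4.35e-04) at FR8 and −0.55 ± 0.19 (0.0178) at FR20. Between FR8 and FR20 the difference was 0.29 ± 0.18 (0.375), higher in 12 of 18 animals, which did not pass. Without FS animals 10, 17, 19 and 21 and CPF animal 13 at FR20 it was 0.58 ± 0.16 (0.00515).

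F9, the factor missing in hemophilia B, was the member without a detectable change. Its FS levels were 43.0, 169 and 514 CPM at Baseline, 46.6, 195 and 335 at FR2 and 76.4, 161 and 313 at FR8 (animal 11 left out at both), and 39.9, 188 and 291 at FR20. The spread between animals exceeded the shift of the medians at every timepoint. Without animal 11 at FR2 and FR8 the log2 fold changes were −0.09 ± 0.21 (adjusted p = 0.763), −0.29 ± 0.21 (0.277) and −0.28 ± 0.21 (0.298). With all 88 libraries they were −0.26 ± 0.36 (0.582), −0.48 ± 0.37 (0.311) and −0.26 ± 0.35 (0.597). At FR20 it was lower in 8 and higher in 7 of 15 animals.

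PLG, which encodes the precursor of plasmin, fell by a similar amount at each timepoint. Its FS levels were 3879, 5084 and 6181 CPM at Baseline, 1355, 4004 and 5160.4 at FR2, 2194, 3865 and 5423 at FR8 and 2128, 3895 and 5741 at FR20. The log2 fold change was −0.33 ± 0.12 (adjusted p = 0.0164), −0.39 ± 0.12 (0.006) and −0.37 ± 0.12 (0.0109). Its direction depended on the scaling: with library totals in place of TMM scaling the FR20 change was 0.04 ± 0.10 (0.716).

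Counted together, 5 of the 8 measured members had passed the test (adjusted p under 0.05) as lower by FR2 in FS animals, against 41.4% of all genes tested, 21.1% as lower. At FR8 it was 7, against 39.3% of genes (19.5% lower), and at FR20 7, against 33.8% (16.4% lower). No member rose at these timepoints, which share their Baseline libraries. The median log2 fold change of the 8 members was −0.35, −0.61 and −0.70, where that of all genes tested was −0.04, −0.00 and 0.04. Past a 2-fold change as well were 0, 2 and 3 members (0, 1 and 2 without animal 11 at FR2 and FR8), where 5.85%, 7.39% and 5.25% of genes were called lower by that rule. From FR2 to FR8 2 members fell, F7 (−0.41 ± 0.12, adjusted p = 0.00992) and PROC (−0.45 ± 0.15, 0.0196), against 28.4% of genes called (13.9% lower). Calls were lower in number with library totals, 3, 4 and 4 members at FR2, FR8 and FR20, all lower, against 11.2%, 10.6% and 5.76% of genes called lower, while the median of all genes itself then moved by 0.15, 0.25 and 0.45. With the 3 Baseline libraries low in albumin kept (91 libraries), 0 members passed at any of these timepoints by edgeR's test and 0 at an unadjusted p under 0.05, where 17.2%, 15.5% and 12.3% of genes were called lower, and PROC at FR20 was −0.88 ± 0.48 (adjusted p = 0.183).

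**Figure D3:**
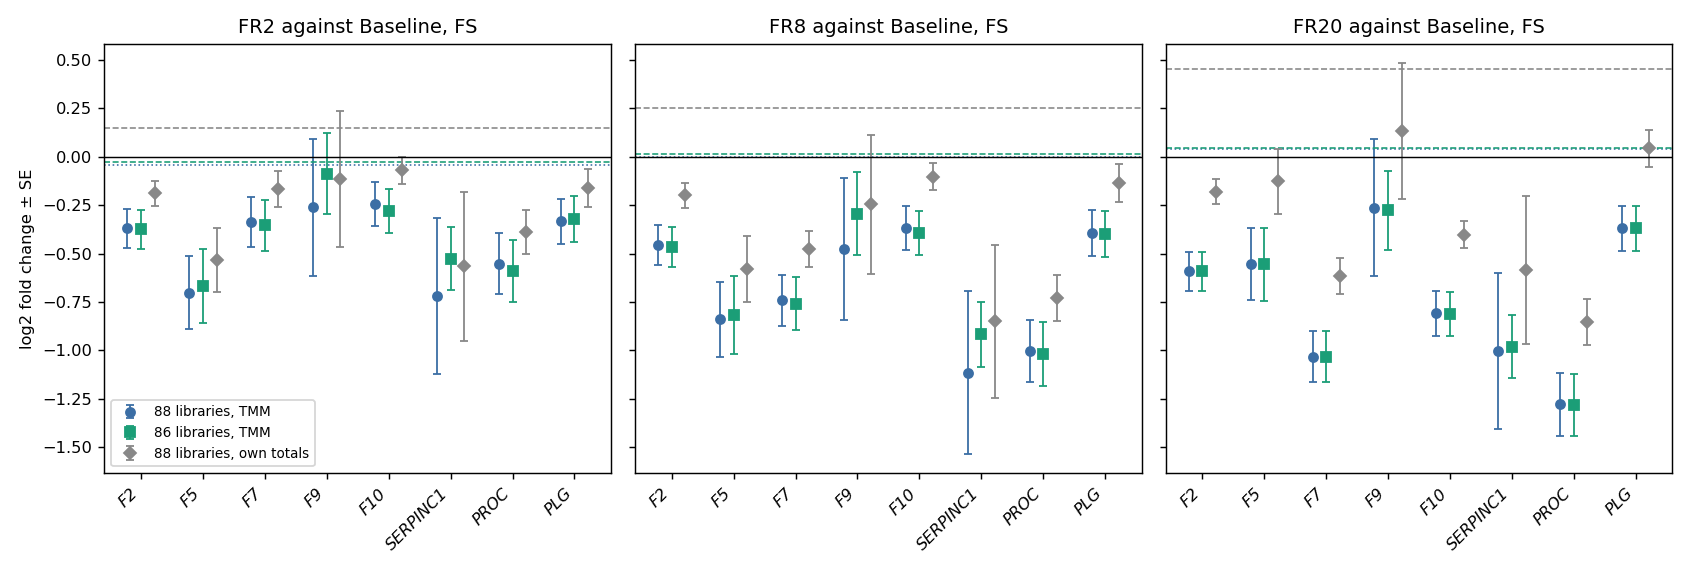
Log2 fold change from Baseline with its SE in FS animals for the 8 members at FR2, FR8 and FR20, from 3 fits: all 88 libraries with TMM scaling, 86 libraries without FS animal 11 at FR2 and FR8, and 88 libraries scaled by their own totals. Broken lines mark the median of all genes tested in each fit. With TMM scaling PROC is the lowest at FR20 (−1.28), and with own totals PLG lies at 0.04.

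With some of the libraries that went against their labels left out, 7 members passed the test as lower at FR8 and 7 at FR20. Those of FS animals 4, 9 and 20 were kept. Without FS animals 17, 19 and 21 the counts were 4, 7 and 7 at FR2, FR8 and FR20, against 24.2%, 23.1% and 18.7% of all genes called lower. Without FS animals 10, 17, 19 and 21 and CPF animal 13 at FR20 they were 5, 7 and 7, against 27.6%, 25.8% and 20.4%. From FR2 to FR8 the count was 6 and 5 in these fits in place of 2, all lower, against 20.3% and 23.5% of genes. In the latter fit PROC changed by −0.39 ± 0.09 (adjusted p = 3.82e-04), −1.24 ± 0.09 (6.22e-16) and −1.43 ± 0.10 (5.12e-18). These libraries were picked by their expression profile, members included, so larger changes follow in part from how they were picked. Without the FR2 and FR8 libraries of animal 11 the counts were 7, 7 and 7, against 42.9%, 40.4% and 36.5% of all genes tested (21.3%, 19.2% and 17.7% lower).

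Ratios between members within a library do not depend on how libraries are scaled. The ratio of PROC to F2 was lower than at Baseline in 12, 14 and 15 of 15 FS animals at FR2, FR8 and FR20, with median log2 changes of −0.09, −0.64 and −0.67. The ratio of F7 to F2 was lower in 5, 14 and 15 of 15 animals at the same timepoints. That of F10 to F2 was higher in 10 of 15 at FR2 and 12 of 15 at FR8 (median log2 changes 0.20 and 0.19) and lower in 14 of 15 at FR20 (−0.33). For PLG the order turned, its ratio to F2 being higher in 13 of 15 animals at FR20 (median log2 change 0.37). F5 to F2 was lower in 15 of 15 at FR8 (−0.49) and in 5 of 15 at FR20. By FR20, transcripts of protein C, F7 and F10 were thus lower relative to prothrombin than at Baseline in 14 or 15 of 15 animals, and those of plasminogen were higher relative to it in 13.

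In CPF animals the fitted changes at FR8 and FR20 were below 0 for all 8 members, and 3 and 1 of them passed. PROC stood at 2317, 2083, 1702, 1891 and 2109 CPM at Baseline in animals 3, 7, 8, 13 and 18, and at 1779.6, 1924, 1574, 1527 and 1635 at FR2. It was at 1315, 728, 969 and 796 CPM at FR8 in animals 7, 8, 13 and 18, and at 992, 889, 458, 1757 and 770.4 at FR20. All 4 FR8 libraries were below the lowest Baseline library, and at FR20 all but that of animal 13 were. The log2 fold change was −0.25 ± 0.28 (adjusted p = 0.649), −1.09 ± 0.31 (0.0157) and −1.13 ± 0.29 (0.0346).

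F5 and SERPINC1 were likewise below every CPF Baseline library at FR8. This sets 4 libraries against 5, and the share of all genes that separate in this way was not counted. F5 was at 533, 462, 389, 303 and 405 CPM at Baseline and at 218, 129, 277 and 115 at FR8, a log2 fold change of −1.19 ± 0.37 (adjusted p = 0.0265). At FR20 F5 was at 390.1, 227, 109.9, 533 and 212 CPM in animals 3, 7, 8, 13 and 18. The FR20 library of animal 13 was at or above the Baseline values, and the change did not pass (−0.65 ± 0.34, 0.342). SERPINC1 was at 5630.4, 4628, 4671, 4651 and 5465 CPM at Baseline, 3106, 1942, 3342 and 2050.1 at FR8 and 2594, 2264, 1191, 4758 and 2102 at FR20. In the fit without FS animal 11 at FR2 and FR8 its change was −0.97 ± 0.32 (0.0298) at FR8 and −1.07 ± 0.29 (0.0464) at FR20, and with all 88 libraries it was −0.97 ± 0.79 (0.439) and −1.07 ± 0.73 (0.482).

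F7 was the third member past the test at FR8 in CPF animals. It was at 188, 162, 115, 150.2 and 145 CPM at Baseline, 119.7, 63.4, 86.6 and 71.2 at FR8 and 73.6, 137, 43.8, 125 and 82.4 at FR20. Animal 8 had the lowest level at each of these timepoints. Its change was −0.86 ± 0.25 (adjusted p = 0.0191) at FR8 and −0.79 ± 0.23 (0.0699) at FR20. F2, F9, F10 and PLG did not pass at any CPF timepoint. F10 was at 1121, 851, 699, 885 and 1012 CPM at Baseline and 525, 827, 367, 758 and 422 at FR20 (−0.70 ± 0.21, 0.0693), lower in 5 of 5 animals.

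The count in CPF animals was 0 of 8 at FR2 by edgeR's test, 0 also at an unadjusted p under 0.05 and 0 by DESeq2, where 3.41% of all genes passed (1.4% lower, and 0.937% lower and past a 2-fold change). At FR8 3 members passed, all lower, against 13.3% of genes (6.99% lower), and at FR20 1, against 0.893% (0.615% lower). At FR8 2 and at FR20 1 also reached a 2-fold change, where 5.14% and 0.454% of genes were called lower by that rule. Without FS animals 10, 17, 19 and 21 and CPF animal 13 at FR20 the counts at FR8 and FR20 were 5 and 5, all lower, against 11.3% and 6.94% of genes called lower. The FR8 count was 0 without animal 8 or animal 18, and the FR20 count was 0 without CPF animal 3, 7, 8 or 18 and 3 without animal 13, FS animal 17 or FS animal 19.

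Whether prefeeding altered these transcripts is the question the design puts. No member differed between CPF and FS animals in its change from Baseline (0 of 8 at FR2, FR8 and FR20 by edgeR's test, 0 at an unadjusted p under 0.05, 0 by DESeq2), and 0% of all genes tested did. The CPF change minus the FS change ran over the members from 0.13 to 0.47 at FR2, from −0.35 to 0.14 at FR8 and from −0.09 to 0.24 at FR20. Without FS animal 11 at FR2 and FR8 it ran from 0.0033 to 0.34, from −0.37 to 0.02 and from −0.09 to 0.24. For PROC the difference was 0.15 ± 0.33 at FR20, with a 95% interval from −0.49 to 0.79, and for F2, the most precise at FR20, 0.06 ± 0.21 (−0.35 to 0.47). A difference within these bounds could not be told from equal change with 5 CPF animals.

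Levels at single timepoints gave the same count. At Baseline, before injury, no member differed (0 of 8 by edgeR and by DESeq2, 0 at an unadjusted p under 0.05), against 0.0342% of 11688 genes tested, and the fitted CPF minus FS difference of PROC was 0.06 ± 0.19 (−0.32 to 0.43). At FR2, FR8 and FR20 the counts were 0 of 8 by the same tests, with 0% of genes called. All 8 members were fitted as higher in CPF animals at FR2, from 0.02 ± 0.57 for F9 to 0.39 ± 0.62 for SERPINC1, and each 95% interval included 0. Without the FR2 library of animal 11, 7 of the 8 were fitted as higher, with F9 at −0.07 ± 0.30 and SERPINC1 at 0.31 ± 0.21. F2 was at 0.25 ± 0.15 (−0.04 to 0.54, adjusted p = 0.947) with that library and at 0.27 ± 0.14 (4.26e-04 to 0.54, adjusted p = 0.714) without it, and 0 members passed at an unadjusted p under 0.05 in either fit.

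**Figure D4:**
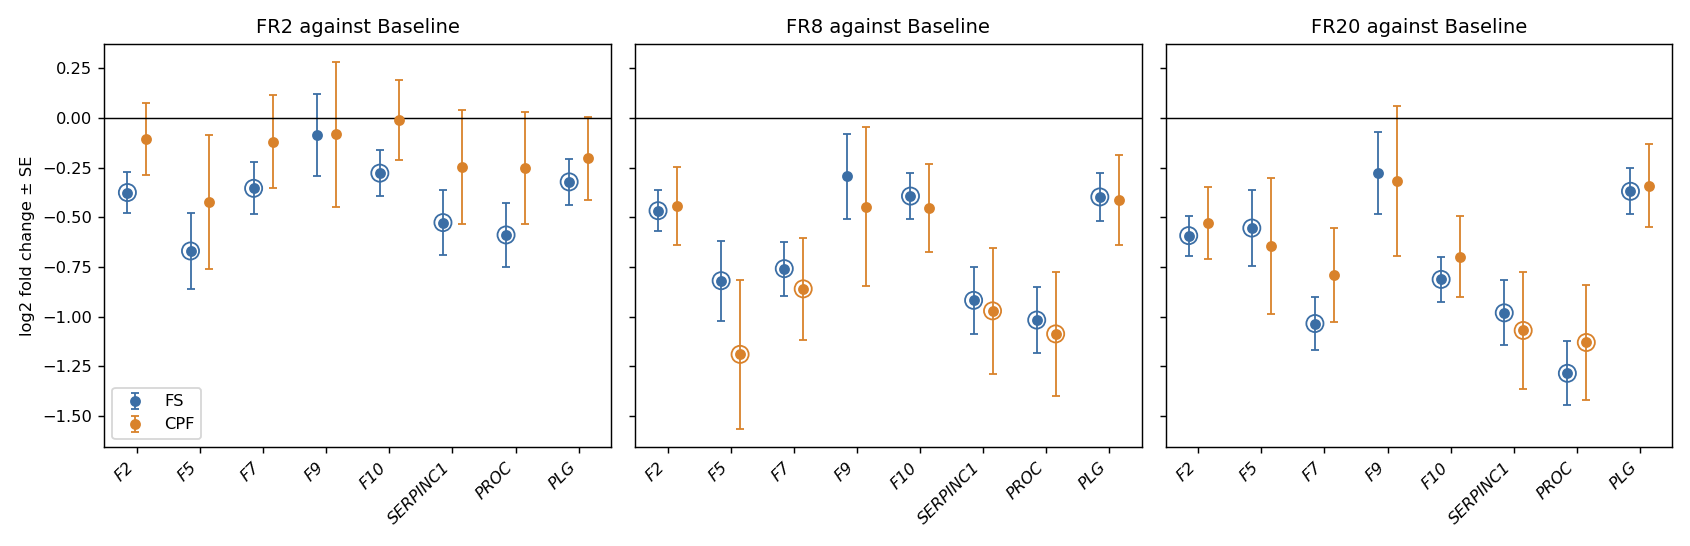
Log2 fold change from Baseline of each member in FS animals and in CPF animals at FR2, FR8 and FR20, from the fit of 86 libraries, with SE bars and rings for an adjusted p under 0.05 in each group. PROC lies at −1.28 in FS and −1.13 in CPF animals at FR20.

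Between animals labeled as having died and those that lived, no difference was detected in any member at any timepoint. The count was 0 of 8 by edgeR's test with a term for feeding, 0 at an unadjusted p under 0.05 and 0 by DESeq2, and 0% of all genes were called. With 5 animals that died, a difference could go undetected. At FR8 all 8 members were fitted as lower in animals that died, from −0.43 to −0.13. Their median was −0.27, where that of all genes tested was −0.006. Without FS animals 17, 19 and 21, 7 of the 8 were fitted as lower at FR8, and the range was −0.19 to 0.007. The fitted difference farthest from 0 was that of PROC at FR20, −0.52 ± 0.32 (95% interval −1.14 to 0.10, adjusted p = 0.907). It was −0.26 ± 0.22 without FS animals 17, 19 and 21, and −0.12 ± 0.20 without these, FS animal 10 and CPF animal 13 at FR20, and the farthest from 0 was then F9 at Baseline (0.45 ± 0.39 and 0.43 ± 0.40 in these fits). PROC was at 458, 870 and 900 CPM in the 3 FS animals that died and 458 and 889 in the 2 CPF animals. Those that lived ran from 535 to 2145 CPM in 15 FS animals and from 770.4 to 1757 in 3 CPF animals. The ranges overlapped.

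Of 38 other genes of the pathway listed for comparison, 27 have a row and 23 were abundant enough to test. In FS animals 4 of the 23 rose and 7 fell at FR2, 7 rose and 7 fell at FR8, and 4 rose and 7 fell at FR20. Their median log2 fold change was −0.06, −0.07 and 0.02, where that of the members was −0.35, −0.61 and −0.70. These shares can be read against the 41.4%, 39.3% and 33.8% of all genes called.

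Fibrinogen moved the other way. FGG, the gamma chain of the substrate of thrombin, was at 9607, 12613 and 34364 CPM at Baseline in FS animals and at 12024, 32767 and 70518 at FR8. It rose by 0.85 ± 0.22 (adjusted p = 0.00116), 1.28 ± 0.21 (4.50e-06) and 0.87 ± 0.22 (0.00124) on the log2 scale. FGB, the beta chain, was at 3295, 5981 and 11691 CPM at Baseline and 5349, 13798 and 31643 at FR8, with changes of 0.50 ± 0.37 (0.285), 1.10 ± 0.36 (0.0127) and 0.48 ± 0.37 (0.329), and it was listed at 0 in animal 11 at FR2. Without that animal's FR2 and FR8 libraries FGB passed at FR2 as well (0.58 ± 0.22, 0.0285). In CPF animals FGG rose at FR8 by 1.797 ± 0.40 (0.00359). Positive acute phase proteins, the group to which fibrinogen belongs, rose in 4, 6 and 4 of 6 tested genes at FR2, FR8 and FR20 in FS animals. FGG and FGB are among these 6. The share of all genes called at these timepoints was 41.4%, 39.3% and 33.8%. F13A1, the transglutaminase that crosslinks fibrin, rose by 1.70 ± 0.48 (0.00363), 1.43 ± 0.48 (0.0132) and 1.23 ± 0.47 (0.0377), from a low level (median of 1.48 CPM over the 88 libraries). The alpha chain FGA was not analysed here.

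The plasminogen activators rose early. PLAT, tissue plasminogen activator, rose by 2.07 ± 0.40 (adjusted p = 3.28e-05) at FR2, with 0.34 ± 0.37 (0.496) at FR8 and 0.65 ± 0.41 (0.211) at FR20. From FR2 to FR8 it fell by 1.73 ± 0.36 (2.57e-04). PLAU, urokinase, rose by 1.03 ± 0.26 (0.00108) at FR2, 0.68 ± 0.25 (0.0255) at FR8 and 0.94 ± 0.26 (0.00322) at FR20. In CPF animals both rose at FR2, PLAT by 2.83 ± 0.69 (0.0156) and PLAU by 1.52 ± 0.46 (0.0483). SERPINB2, an inhibitor of urokinase, had the highest changes at FR8 (2.79 ± 1.09, 0.0361) and FR20 (4.05 ± 1.03, 0.00163), but was at 0 in 43 of 88 libraries with a median of 0.063 CPM.

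Further secreted regulators fell with the members. KLKB1, plasma prekallikrein of the contact system, changed by −0.83 ± 0.25 (adjusted p = 0.00508), −1.87 ± 0.27 (6.51e-07) and −1.57 ± 0.26 (3.01e-06) on the log2 scale in FS animals. HRG, a plasma protein that binds plasminogen and heparin, changed by −0.82 ± 0.31 (0.0295), −1.70 ± 0.33 (4.07e-05) and −2.62 ± 0.35 (3.70e-08). SERPIND1, heparin cofactor II, changed by −0.93 ± 0.22 (5.41e-04), −1.28 ± 0.24 (1.96e-05) and −1.35 ± 0.23 (4.50e-06). SERPINA5, the protein C inhibitor, changed by −0.48 ± 0.17 (0.0179), −1.02 ± 0.18 (7.54e-06) and −1.40 ± 0.18 (1.28e-08), so that transcripts of protein C and of one of its inhibitors both decreased.

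**Figure D5:**
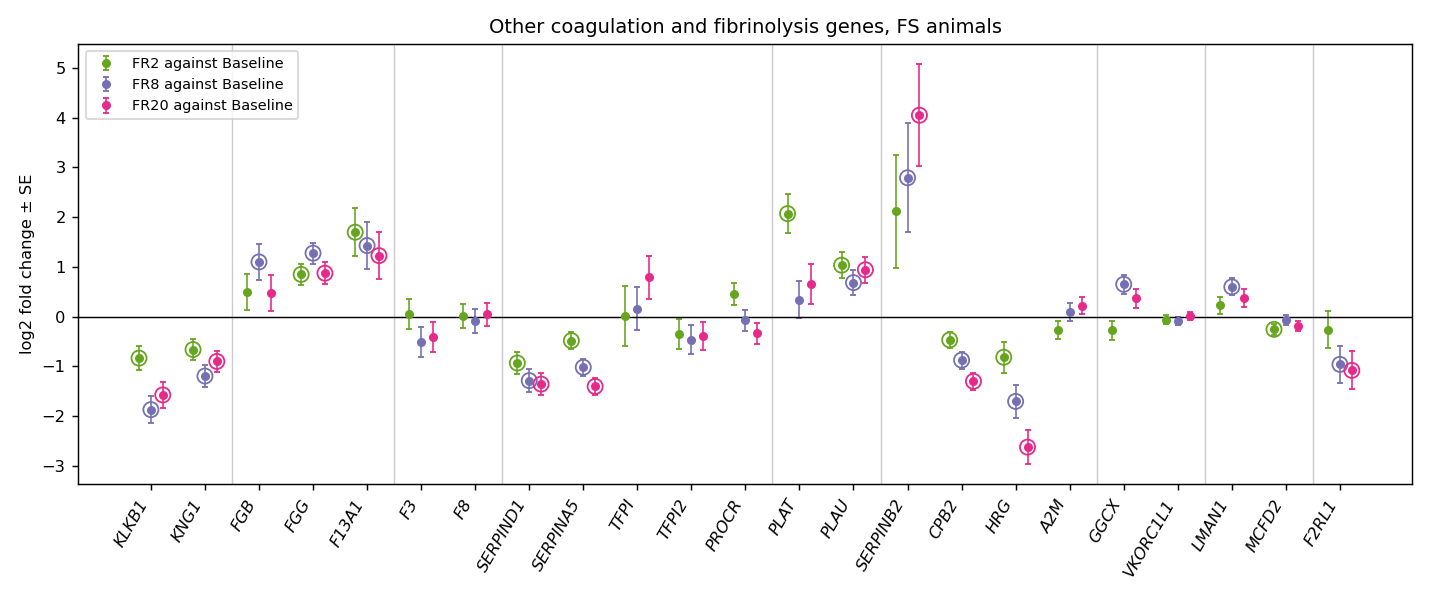
Log2 fold change from Baseline in FS animals at FR2, FR8 and FR20 for the 23 other tested genes of the pathway, from the fit of 88 libraries, with rings for an adjusted p under 0.05. FGG (0.85, 1.28 and 0.87) and F13A1 are above 0 at each timepoint, and HRG reaches −2.62 at FR20.

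Transcription factors that act on these genes in hepatocytes did not move together: of 8 tested, 4, 3 and 2 rose and 2, 2 and 1 fell at FR2, FR8 and FR20 in FS animals. Of all genes tested, 41.4%, 39.3% and 33.8% were called at these timepoints. HNF4A, a nuclear receptor required for hepatocyte gene expression, was at 366, 582 and 816 CPM at Baseline in FS animals and 313, 1257 and 1902 at FR2. It rose by 0.93 ± 0.20 (adjusted p = 1.54e-04) at FR2, with −0.33 ± 0.20 (0.182) at FR8 and −0.37 ± 0.20 (0.151) at FR20. The difference between FR2 and FR8 was −1.26 ± 0.19 (1.05e-05). CEBPA rose by 1.21 ± 0.25 (9.98e-05), 1.48 ± 0.25 (6.10e-06) and 1.04 ± 0.25 (8.32e-04), from a Baseline median of 11.96 CPM. Within FS animals, HNF4A was above Baseline in 14 of 15 at FR2, and below it in 13 at FR8 and 15 at FR20. CEBPA was above Baseline in 14, 13 and 11 of 15. In CPF animals HNF4A was above Baseline in 4 of 5 at FR2, and below it in 4 of 4 at FR8 and 5 of 5 at FR20. Whether these factors had a part in the members' changes was not tested.

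Hepatocyte markers fell as well. ALB, the most abundant, changed by −0.71 ± 0.24 (adjusted p = 0.014), −1.43 ± 0.25 (1.04e-05) and −2.22 ± 0.26 (2.85e-09) in FS animals, further than any member at FR8 and FR20. Against 21.1%, 19.5% and 16.4% of all genes tested, 7, 6 and 6 of 11 hepatocyte markers passed as lower at FR2, FR8 and FR20. Their summed level was 88903, 225523 and 254760.0 CPM at Baseline and 26721, 60203 and 169613 at FR20 (lowest, median, highest). In bulk tissue, fewer hepatocytes and less of these transcripts per hepatocyte cannot be told apart.

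Markers of other cell types were called in part in FS animals. Of all genes tested, 41.4%, 39.3% and 33.8% were called at FR2, FR8 and FR20 (21.1%, 19.5% and 16.4% lower). Kupffer cell and macrophage markers fell in 3, 4 and 4 of 5 genes, and 1 (CD68, named after its values were seen) rose at FR20. Their summed median went from 1505 CPM at Baseline to 991 at FR20, with CD14 and C1QA the most abundant. Of 5 endothelial markers, among which ENG and PECAM1 are the most abundant, 1 rose and 1 fell at FR2, 1 rose and 1 fell at FR8 and 1 rose at FR20. Neutrophil markers were near 0, with summed medians of 0.911 CPM at Baseline and 4.76 at FR2, and 1 of 2 tested (S100A8) was higher at all 3 timepoints. Striated muscle markers were lower in 2 of 5 at each timepoint, erythroid markers in 1, 2 and 2 of 3, and T and NK cell markers in 1, 2 and 2 of 4. Of 3 cholangiocyte markers 1 was higher at FR2, 2 were lower at FR8 and 1 was lower at FR20, and the 1 platelet marker tested was higher at FR2. The part of these shifts in the members' results was not tested.

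Across libraries PROC varied most closely with SERPINC1 and F7. Over 86 libraries the Spearman correlation of log2 CPM was 0.94 between PROC and SERPINC1 and 0.94 between PROC and F7, the closest of the 28 pairs of members. F9 stood apart, with correlations from −0.03 (with F10) to 0.67 (with F5). With ALB the correlation was 0.86 for PROC, 0.57 for PLG and 0.27 for F9. These values describe libraries that share animals, timepoints and scaling and are given with no test. The genes most like PROC over all 88 libraries were AMBP (0.96), DNASE1L2 (0.95) and SERPINA5 (0.94).

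For 6 of the other members the closest gene was AMBP for F2 (0.90), APOE for F7 (0.92) and for F10 (0.91), ALDH6A1 for F9 (0.91), OTC for SERPINC1 (0.93) and ALDH2 for PLG (0.89). The next 2 were HSD17B8 and DNASE1L2 for F2, C8G and DNASE1L2 for F7, HSD17B4 and AKR1D1 for F9, LTC4S and AMBP for F10, RGN and C8A for SERPINC1, and NIT2 and CFI for PLG, with correlations from 0.84 to 0.92. NIT2 and AGMO were among the 3 closest to F5, within the same range. Without FS animal 11 at FR2 and FR8 (86 libraries) the 3 closest to SERPINC1 were GSTZ1, C8A and PBLD (0.94 each), and those of F9 were as before.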

How the data were processed

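RNA-seq libraries of pig liver biopsies were analyzed from the deposited table of counts per pig Ensembl gene. These counts were made by the authors from single-end reads on the Sscrofa10.2 build and are deposited as whole numbers with no normalization. The deposited table is named as filtered, the filter is not given in the sources used here, and genes at 0 in every library are among its rows. Per the submitters' processing notes, CASAVA 1.8.2, TopHat 1.5.0, SAMtools, HTSeq and edgeR 3.2.4 were used. The mode and strand option of HTSeq are not given in the sources used here, so reads of overlapping or near-identical genes may have been dropped or split. All 92 columns matched a library by title (0 columns unmatched), and the animal code in the titles pairs the libraries of an animal. No sequencing batch is given. The members and gene lists were chosen with earlier results of these data known.

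Counts were analyzed with edgeR 4.0.16 in R 4.3.3 (TMM scaling, genes whose CPM sum to 10 or more, quasi-likelihood F test, 2-sided). Changes from Baseline were fitted on 88 libraries, with 1 term per animal and with timepoint terms by feeding group. Of the FS animals, 15 have a Baseline library. FS animals 17, 19 and 21, without one, still entered this fit through their differences between FR2, FR8 and FR20. The members' median FS change was −0.35, −0.61 and −0.70 at FR2, FR8 and FR20 with them. It was −0.26, −0.74 and −0.77 without them. CPF against FS at a timepoint, and died against lived with a term for feeding, were fitted on the libraries of that timepoint (11688 to 12307 genes). A gene passed at a Benjamini-Hochberg adjusted p under 0.05 over all genes tested, and the number that also reached an absolute log2 fold change of 1, the rule in the study's methods, is given beside it. The SE is the log2 fold change divided by the root of F, and 95% intervals are 1.96 SE on either side. Log2 CPM for correlations and changes within animals used a prior count of 2.

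Named in the text are the 9 members; of the other pathway genes, the 3 highest and 3 lowest changes past the test at each FS timepoint and FGA, FGB, FGG, HNF4A, CEBPA and ALB; the 2 most abundant genes of cell type lists; and the 3 genes most correlated with each member. Some genes that this rule names are not reported here. Alternatives were RLE size factors, no filter, filterByExpr, DESeq2 1.42.0, edgeR's likelihood ratio test, 91 and 92 libraries, no animal terms, each animal left out, and, chosen after seeing the data, 3 sets of doubted libraries left out and library totals without TMM. Also used were limma 3.58.1, pandas 2.3.3, matplotlib 3.10.9, numpy 2.4.6 and scipy 1.17.1 in Python 3.11.15. On simulated counts with 200 changed genes the test recovered 200 at FR2vB in FS animals (4 false calls, 13585 genes). The median size of their fitted changes was 1.01 on the log2 scale, where the members' changes at FR2 ran from −0.72 to −0.24. The simulation held no swapped libraries or lost counts, so it does not measure the power to detect the members' changes. No sequence of these genes was used here.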

Additional observations from a re-analysis of the deposited data

How the results depend on the processing

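Of the member counts, those between CPF and FS animals, between animals that died and lived, and at FR2 in CPF animals were 0 under every alternative. RLE size factors and filterByExpr moved no count by over 1.5 times. With the 3 Baseline libraries low in albumin kept (91 libraries), and also with all 92, the count was 0 in every comparison where it had been above 0: FR2, FR8 and FR20 against Baseline, FR8 against FR2 and FR20 against FR8 in FS animals, and FR8 and FR20 against Baseline in CPF animals. Among members that had passed, directions turned there for PLG in FS animals at FR2 (0.0066 with 92 libraries), FR8 (0.0048 with 91) and FR20 (0.0074 with 92) and for F10 at FR8 (0.0065 with 91), and for PLG at FR20 with library totals without TMM (0.0435). Among those that had not passed, F9 and F10 at FR2 (0.09 and 0.08) and F9 at FR20 (0.10) were above 0 with 91 libraries, as was F9 at FR20 (0.13) with library totals, and the CPF minus FS difference in change at FR2 was below 0 in 7 members with 91 libraries and in 0 with 88. A 2-fold rule beside the adjusted p left 0 members at FR2, 2 at FR8 and 3 at FR20 in FS animals, and 0 from FR2 to FR8 and from FR8 to FR20. Library totals without TMM left 3, 4 and 4 at FR2, FR8 and FR20 in FS animals.

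The pairing of libraries by animal mattered to small counts. Without the replicate block, that is, without animal terms, the counts from FR2 to FR8 and from FR8 to FR20 in FS animals and at FR20 in CPF animals were 0, and no other count moved by over 1.5 times. Without FS animals 17, 19 and 21, 6 members passed from FR2 to FR8, all lower, against 20.3% of genes called lower. In that fit 2 passed from FR8 to FR20, 1 lower and 1 higher, and 4 at FR20 in CPF animals, all lower. Without FS animals 10, 17, 19 and 21 and CPF animal 13 at FR20, these counts were 5, 2 (1 lower, 1 higher) and 5, and that at FR8 in CPF animals was 5. From FR2 to FR8, and at FR20 and FR8 in CPF animals, 23.5%, 6.94% and 11.3% of genes were called lower in this fit. The CPF count at FR20 was 0 with no filter, 3 with DESeq2, 3 with the likelihood ratio test and 2 without the FR2 and FR8 libraries of FS animal 11. For the counts in this paragraph with no share beside them, the share of all genes was not counted, so they are not read as a result about the members. The cause of these shifts was not tested.

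Leaving out each of the 23 animals in turn gave 5 to 7 members at FR2, 7 to 7 at FR8, 6 to 7 at FR20, 1 to 2 from FR2 to FR8 (1 without animal 12 or 20) and 1 to 1 from FR8 to FR20 in FS animals. In CPF animals it gave 0 to 0 at FR2, 0 to 4 at FR8 and 0 to 3 at FR20. In these fits the dispersion trend and the genes tested were those of all 88 libraries. The lowest group median of a member was 76.3 CPM (F7 in FS animals at FR20), and the comparisons of feeding groups rest on 5 CPF animals.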
